A study of Homo sapiens with 9 samples.

Results

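Cholesterol synthesis genes were followed in H1 cells, a long-used human embryonic stem cell line, through 8 genes taken by name from the table of gene counts: HMGCS1, MVD, IDI1, FDFT1, SQLE, LSS, DHCR7 and SREBF2. Each name matched 1 row of 60829, and all 8 passed the filter on low counts that left 27777 rows for testing. The libraries are of total RNA after removal of ribosomal RNA. The control group is 1 clone labelled WT and chrX-ctrl (4 libraries). The knockout group is 1 clone labelled chrX-KO, which lacks HERVHlin on chromosome X (5 libraries), a locus of the HERVH family of endogenous retroviruses. Both clones were grown in mTESR medium on vitronectin. A treatment label nevertheless calls the cells differentiated, and marker levels are given below. Per the series design each library is a sequential passage of its clone, handled as a technical replicate although the titles call it biological, so the p-values below reflect only how passages of a single clone vary.

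Cells build cholesterol from acetyl-CoA through mevalonate, isoprenoid pyrophosphates, squalene and lanosterol. The transcription factor SREBP2, the product of SREBF2, is held in the endoplasmic reticulum when sterols are plentiful. When they run low it is cut loose and raises the genes of nearly every step, its own gene included. Because that control acts on the protein, SREBF2 RNA does not measure active SREBP2. At sterol-regulated promoters SREBP2 acts together with NF-Y, a factor that binds the CCAAT box, and with SP1, which binds the GC box.

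The RefSeq promoter windows (GRCh38.p14, 250 bases before to 50 after each start) held 6 of the 8 genes, all except FDFT1 and SQLE. The stretches printed here show where these windows hold the words known for sterol-regulated promoters. The first is from SREBF2, with a match to the sterol regulatory element word TCACNCCAC (N is any base) in capitals, beginning 133 bases before the start (chr22:41832962-41832991, plus strand).
SREBF2 sterol element: tgacgcgccaTCACCCCACgcaccgcttcg
This word, searched on both strands, occurred among the 6 genes only in SREBF2, and in 1.39% of 27305 genes with a window. The next stretches each hold a CCAAT box in capitals, read as CCAAT or, on the other strand, as ATTGG. For each gene the match shown is the nearest to a RefSeq start whose 30 bases overlap no annotated exon of that gene. They are given 5′ to 3′ on the strand of the gene, which is plus for SREBF2 (chr22:41832987-41833016) and minus for HMGCS1 (chr5:43313550-43313579), MVD (chr16:88663194-88663223), IDI1 (chr10:1049219-1049248), LSS (chr21:46228907-46228936) and DHCR7 (chr11:71448470-71448499).
HMGCS1 CCAAT: agtttccttttgATTGGtagaagccggact
MVD CCAAT: gactcgccgctgATTGGtcggcgcgcgagc
IDI1 CCAAT: atcgaaagcgtgATTGGctggcggcgtctg
LSS CCAAT: cgcggcgctctgATTGGttgcgtgggcgtc
DHCR7 CCAAT: caggctcctcgaCCAATcacggggcgcgga
SREBF2 CCAAT: cttcgctcgcccATTGGctgagatgagcct
All 6 genes held a CCAAT box, against 39.7% of all genes in the windows, and all 6 held the GC box GGGCGG, against 48.3%. The 6 genes have 10 windows in all, 1 for each start, of which 7 held CCAAT and 9 held GGGCGG, against 34.6% and 45.0% of all windows. These are letter matches, not measured binding.

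The cells carried the RNA of embryonic stem cells. All 10 defining markers checked, POU5F1, NANOG and SOX2 among them, were measured, with summed levels of 31910.3 to 72848 normalized counts in the control clone and 26754 to 41290.0 in the knockout clone. With limma 0 of the 10 passed (1 lower at an unadjusted p under 0.05). In either direction 8.63% of all rows and 9.11% of coding rows had such an unadjusted p. The log2 fold changes of the 10 markers, knockout minus control, were all negative, with a median of -0.39. A negative value was seen in 63.4% of coding rows, and in 77.6% of other coding rows with means in the range of the 8 genes. SOX2 (-0.63) and DNMT3B (-0.68) stood at -0.38 and -0.36 without control 3, and at -0.80 and -1.02 without control 1. Of 14 markers of early lineages 12 fell below the filter, and the list summed to 61.6 to 186 normalized counts in the control clone and 37.2 to 85.5 in the knockout clone, although a treatment label calls the cells differentiated. Of 8 fibroblast markers 5 were tested, and the list summed to 3368 to 6010 normalized counts in the control clone and 2942 to 4628 in the knockout clone, with 0 passing by limma (2 lower at an unadjusted p under 0.05). THY1 was the largest part of the fibroblast sum, with means of 3138 (control) and 2640 (knockout). COL1A1 (716 and 417) and COL1A2 (643 and 634) came next. COL3A1, LUM and POSTN, which fell below the filter, had control means of 0.72, 0.46 and 6.69 and knockout means of 3.06, 0.30 and 4.86. No marker of the 3 lists was at 0 in all 9 libraries. The part of these markers in the values below was not tested. Libraries held 19838682 to 31192630 recovered reads, and coding genes took 26.3% (knockout 1) to 50.8% (control 3) of them. Units of short rows are not single reads, so these shares are not exact shares of sequenced reads. Of the 3 rows that the authors marked as the knocked-out feature, 2 fell in the knockout clone, with log2 fold changes of -5.49 and -2.51 (adjusted p from limma 0.000182 and 0.016), and the third stood at -0.68 (limma adjusted p = 0.44).

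None of the 8 cholesterol synthesis genes differed detectably between the clones. With limma 0 of 8 passed an adjusted p under 0.05, where 150 of 27777 rows did (0.540%, of which 0.425% lower and 0.115% higher), or 43 rows when libraries were blocked by replicate. Of 14752 coding rows 0.522% passed. At an unadjusted p under 0.05 the count was again 0 of 8, beside 8.63% of all rows and 9.11% of coding rows. EdgeR and DESeq2 also called 0 of the 8. The libraries of the clones overlapped for all 8 genes, and were apart for 3.95% of all rows and 4.63% of coding rows. The log2 fold changes, knockout minus control, ran from -0.29 (LSS) to 0.02 (MVD), with a median of -0.16. That median was 0.01 over all rows tested and -0.09 over the coding rows. A negative value was seen in 7 of 8 genes, in 63.4% of coding rows and in 49.0% of all rows. Among other coding rows with means in the range of the 8 genes it was seen in 77.6%. The widest limits of the 95% intervals were a knockout level 0.600 times the control level for LSS and 1.30 times for FDFT1. In this fit larger shifts in these means lie outside the intervals of all 8 genes. Other settings moved the estimates, LSS to -0.48 (SE 0.16) without control 1 and FDFT1 to 0.24 (SE 0.15) under quantile normalization. In bulk RNA a smaller share of expressing cells and less RNA per cell cannot be told apart.

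**Figure D1:**
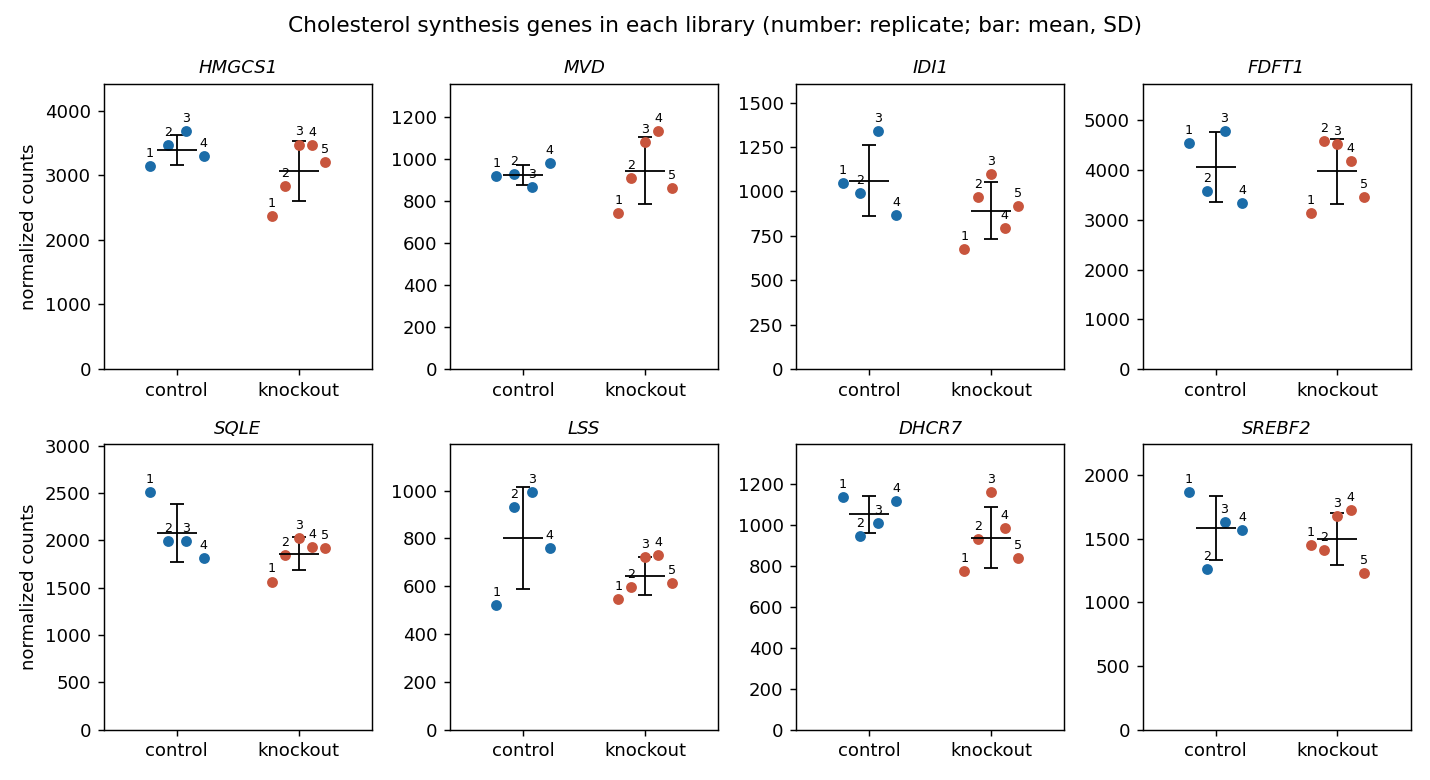
Normalized counts (vertical axes, from 0) of the 8 genes in the 4 control and 5 knockout libraries; points are libraries with their replicate number, the long dash is the mean and the bar the SD. Control and knockout points overlap in every panel, and knockout 1 is the lowest point for 6 of the 8 genes.

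By GENCODE 29 (GRCh38) the genes lie at chr5:43289395-43313512 (HMGCS1), chr16:88651935-88663161 (MVD), chr10:1039152-1049170 (IDI1), chr21:46188141-46228824 (LSS), chr11:71428193-71452868 (DHCR7) and chr22:41833079-41907308 (SREBF2), and reads were counted per gene. The route starts with HMGCS1, which joins acetoacetyl-CoA and acetyl-CoA into HMG-CoA. HMGCS1 measured 3140, 3466, 3687 and 3300 normalized counts in control libraries 1 to 4 and 2378, 2833, 3481, 3470 and 3203 in knockout libraries 1 to 5. Knockout 1 and 2 lay below every control library, and the other 3 knockout libraries lay among the controls. The group means were 3398 ± 234 (SD, n = 4) and 3073 ± 469.5 (SD, n = 5), a log2 fold change of -0.16 (SE 0.15, 95% interval -0.50 to 0.18, limma adjusted p = 0.81).

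MVD and IDI1 handle the isoprenoid units. MVD, the decarboxylase that yields isopentenyl pyrophosphate, measured 919, 929, 866 and 981 normalized counts in the control clone and 745, 908, 1081, 1133 and 861 in the knockout clone. The knockout libraries lay on both sides of a narrow control range, and their SD of 159.8 around a mean of 945.5 stood beside an SD of 47.1 around 924 in the control clone. The log2 fold change of MVD was 0.02 (SE 0.15, 95% interval -0.31 to 0.35, limma adjusted p = 0.97). IDI1, the isomerase that makes dimethylallyl pyrophosphate, measured 1046, 991, 1339 and 867 normalized counts in the control clone and 676, 966, 1096, 795 and 919.9 in the knockout clone. Control 3 stood highest and knockout 1 lowest, 1.98 times apart, the widest range of the 8 genes. The means of IDI1 were 1061 ± 200.1 (SD, n = 4) and 891 ± 161 (SD, n = 5), with a log2 fold change of -0.25 (SE 0.18, 95% interval -0.66 to 0.15, limma adjusted p = 0.77).

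FDFT1, SQLE and LSS carry the carbon from farnesyl pyrophosphate through squalene to lanosterol, the first steps committed to sterols. FDFT1, squalene synthase, measured 4539, 3581, 4785 and 3334 normalized counts in the control clone and 3131, 4589, 4526, 4180 and 3455 in the knockout clone. High and low libraries were found in both clones, and the means of 4060 ± 709.9 (SD, n = 4) and 3976 ± 653 (SD, n = 5) gave a log2 fold change of -0.03 (SE 0.18, 95% interval -0.43 to 0.37, limma adjusted p = 0.97). SQLE, the epoxidase that is a rate-limiting step of the late pathway, measured 2512, 1995, 1991 and 1810.0 normalized counts in the control clone and 1565, 1847, 2027, 1934 and 1919 in the knockout clone. Control 1 lay above and knockout 1 below a cluster formed by the other 7 libraries. The log2 fold change of SQLE was -0.15 (SE 0.14, 95% interval -0.47 to 0.16, limma adjusted p = 0.80). LSS, which folds squalene epoxide into lanosterol, measured 522, 932, 995 and 759 normalized counts in the control clone and 547, 599, 722, 730.2 and 614 in the knockout clone. Control 1 was the lowest of all 9 libraries for LSS, while the other 3 control libraries lay above all 5 knockout libraries. The log2 fold change of LSS was -0.29 (SE 0.20, 95% interval -0.74 to 0.16, limma adjusted p = 0.76), and it came to -0.48 without control 1 (limma adjusted p = 0.33), the only one of 9 such omissions in which any of the 8 genes had an unadjusted p under 0.05.

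DHCR7, the reductase that acts last on the route through 7-dehydrocholesterol, measured 1138, 946, 1011 and 1121 normalized counts in the control clone and 775, 931, 1163, 987 and 841 in the knockout clone. Knockout 3 was the highest library and knockout 1 the lowest, so the knockout range enclosed the control range. Its log2 fold change was -0.18 (SE 0.15, 95% interval -0.51 to 0.15, limma adjusted p = 0.79). SREBF2, the regulator, measured 1869, 1260.0, 1635 and 1571 normalized counts in the control clone and 1454, 1414, 1681, 1724 and 1230.2 in the knockout clone. Each clone had a library near the bottom of the range, control 2 and knockout 5. The means of SREBF2 were 1584 ± 251 (SD, n = 4) and 1501 ± 203 (SD, n = 5), with a log2 fold change of -0.07 (SE 0.16, 95% interval -0.43 to 0.28, limma adjusted p = 0.90). The authors' deposited table gives log2 fold changes from -0.32 (LSS) to 0.03 (MVD) for the 8 genes and adjusted p-values from 0.735 to 0.990.

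The SD of the 8 genes within a clone, on the log2 scale, ran from 0.17 (SQLE) to 0.31 (LSS) with a median of 0.20, beside a median of 0.33 over 11677 coding rows whose mean reached 50 normalized counts. Of those rows 85.0% had an SD above the median of the 8 genes. At like expression, over 2223 other coding rows with means between 713 and 4013 normalized counts, the median SD was 0.35, and 84.8% exceeded the median of the 8. Those rows had a median log2 fold change of -0.14, with 77.6% negative. The highest library was at most 1.98 times the lowest (IDI1).

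Single libraries moved several of the 8 genes at once. In knockout 1 all 8 lay below their own means over the 9 libraries, with a median deviation of -0.34 on the log2 scale, and 6 of 8 had their lowest value there. Other coding rows with a mean of at least 50 deviated by a median of -0.07 in that library. It also had the lowest share of recovered units on coding genes (26.3%) and on mitochondrial genes (0.61%). Its share on rows with miRBase-style names was the highest (31.4%). Units of short rows are not single reads, so these are not exact shares of sequenced reads. In knockout 3 all 8 genes lay above their means, by a median of 0.17, beside 0.13 for the other coding rows. Control 3 was different again: the other coding rows stood 0.44 above their means, while the deviations of the 8 genes had a median of 0.15, MVD being at -0.10, and HMGCS1, IDI1, FDFT1 and LSS had their highest value there. The part of these library features in the values of the 8 genes was not tested. Leaving out knockout 1 brought the median log2 fold change of the 8 genes from -0.16 to -0.081, leaving out control 1 to -0.099 and leaving out control 3 to -0.13. Leaving out knockout 3 brought that median to -0.20, knockout 4 to -0.18 and control 2 to -0.18. All 8 genes were negative without knockout 3, and again without knockout 4. Without knockout 1 HMGCS1 stood at -0.068, IDI1 at -0.16, SQLE at -0.094 and DHCR7 at -0.11. Without control 3 IDI1 stood at -0.135 and LSS at -0.17, and without control 1 SQLE stood at -0.060. Other omissions widened these values. IDI1 stood at -0.34 and SQLE at -0.22 without control 4, and HMGCS1 at -0.21 and DHCR7 at -0.26 without knockout 3. With the replicate numbers taken as pairs, the knockout library was lower than its control partner for 7 of 8 genes in pair 1 (median -0.47), 6 in pair 2 (-0.04), 4 in pair 3 (-0.03) and 3 in pair 4 (0.08). The other coding rows also differed within pairs. Their median deviations, control then knockout, were -0.03 and -0.07 in pair 1 and 0.02 and 0.03 in pair 2. In pair 3 they were 0.44 and 0.13, and in pair 4 -0.16 and -0.22.

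**Figure D2:**
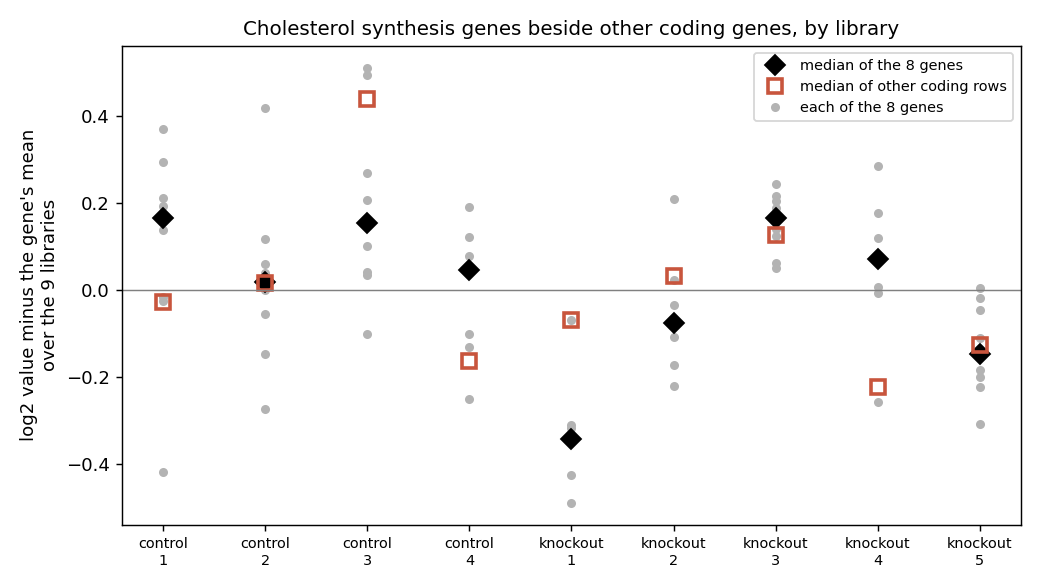
Deviation of each library from the gene's mean over the 9 libraries, on the log2 scale (vertical axis), for each of the 8 genes (grey points), their median (black diamonds) and the median of other coding rows (open squares). The median of the 8 genes is lowest in knockout 1 (-0.34), where other coding rows stand at -0.07, and the coding rows lie highest in control 3 (0.44), where the median of the 8 genes is 0.15.

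The genes took a small, similar share of the coding reads in both clones. Together they held 0.154% ± 0.028 of the reads on coding genes in the control clone (SD, n = 4) and 0.162% ± 0.023 in the knockout clone (SD, n = 5). The lowest share was in control 3 (0.116%) and the highest in knockout 4 (0.201%). On this measure the knockout mean was the higher, whereas the summed normalized counts were lower, at 13826 ± 1752 against 14959 ± 1234. Both differences are within the SD of the libraries.

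Levels were ranked per kilobase of the principal annotated transcript, which takes the counts as not yet scaled by length. The sources used here do not say whether they were, and units of microRNA rows are not single reads. If they were, this ranking corrects for length again. FDFT1 was the most abundant at 1509 normalized counts per kilobase over the 9 libraries (1177 to 1799), and its range lay clear of the next gene, HMGCS1, at 918 (678 to 1052). SQLE followed at 660.4, MVD at 513 and DHCR7 at 371 normalized counts per kilobase, and each exceeded the next gene in all 9 libraries although their ranges overlapped. SREBF2 (293) and IDI1 (287) could not be ordered, SREBF2 being higher in 4 of 9 libraries. LSS was the least abundant at 144 normalized counts per kilobase (106 to 201), below IDI1 in every library. The order depends on the transcript taken as the length: with the union of all annotated exons MVD moved from the fourth place to the seventh in the control clone.

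Antisense or other opposite-strand genes share exonic bases with HMGCS1 (703 bases), IDI1 (643), FDFT1 (217), LSS (448 and 122) and SREBF2 (280), and none of these reached more than 101 normalized counts in a library. AP002387.1, on the opposite strand of DHCR7, was higher, at 229.9 to 410.2 normalized counts, and shares 0 exonic bases with it. The sources used here do not say whether counting used the strand, so reads in those bases cannot be assigned with certainty. The processed copy IDI1P1 reached at most 4.52 normalized counts, and IDI1P2 and IDI1P3 had 0 reads in all 9 libraries. MIR33A, a microRNA gene within SREBF2 that represses cholesterol export and was looked up after the other values were seen, was above 0 only in control 4 (144 normalized counts), knockout 2 (90.2) and knockout 3 (55.9), too few libraries to compare the clones.

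Of 12 other enzymes of the route that are reported here 0 passed (limma, with 0 at an unadjusted p under 0.05, and 0 with edgeR or DESeq2). Their median log2 fold change was -0.17, with 10 of 12 negative. Together with the 8 genes, 17 of 20 were negative, beside 63.4% of coding rows and 77.6% of other coding rows with means in the range of the 8. This count was 13 with scaling on coding rows and 8 with quantile normalization. CYP51A1, the lanosterol demethylase, had the smallest adjusted p of them. It stood at 1703.5 ± 202 (SD, n = 4) and 1387 ± 201 (SD, n = 5) normalized counts, a log2 fold change of -0.30 (SE 0.15, limma adjusted p = 0.64). The other enzymes named by rule were FDPS, which makes farnesyl pyrophosphate (log2 fold change -0.24), MSMO1 (-0.15), HSD17B7 (0.28), EBP (-0.23) and NSDHL (-0.29), none past the threshold. Without control 3 FDPS stood at -0.012, NSDHL at -0.17 and HSD17B7 at 0.18. Without control 4 FDPS stood at -0.36 and HSD17B7 at 0.36, and without knockout 3 NSDHL stood at -0.44.

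**Figure D3:**
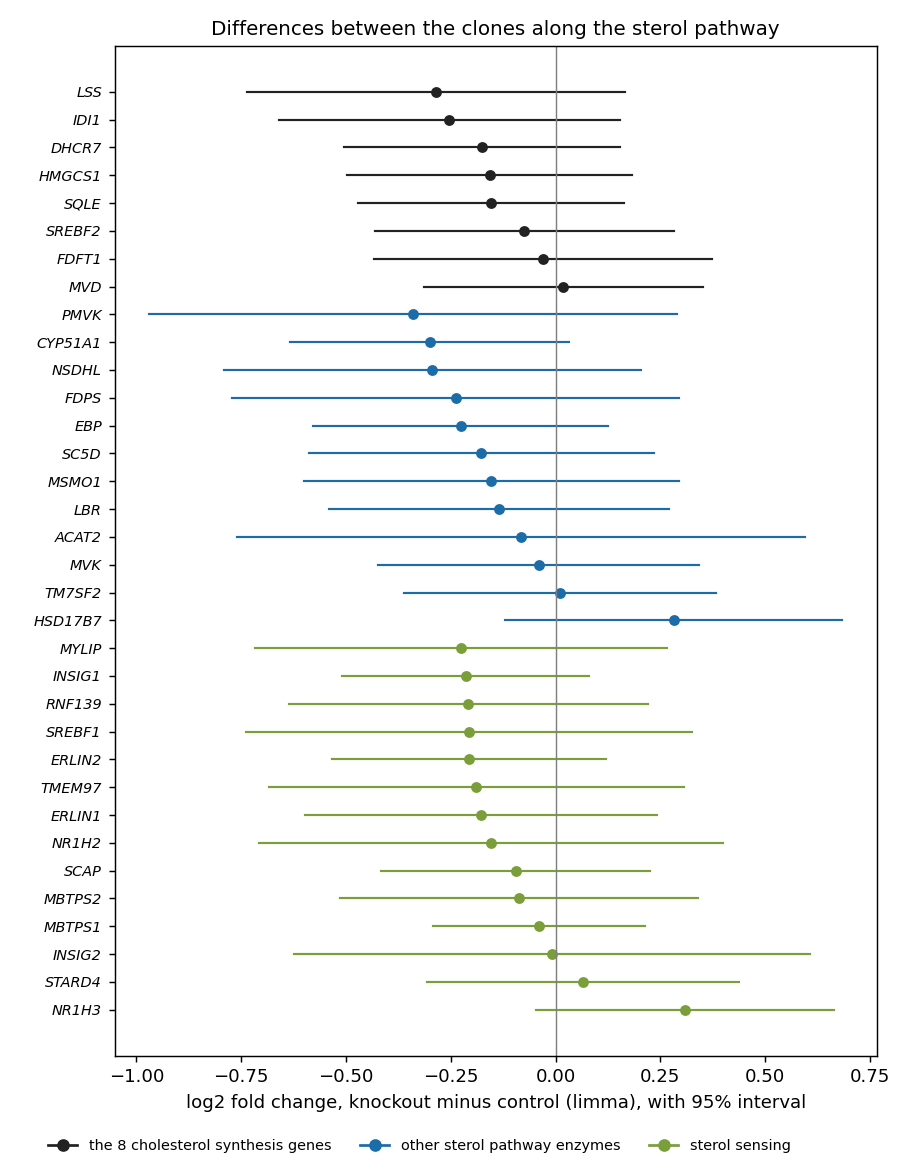
Log2 fold change, knockout minus control, with its 95% interval from limma (horizontal axis), for the 8 genes (black), 12 other enzymes of sterol synthesis (blue) and 14 genes of sterol sensing (green). Every interval drawn includes 0, and those of the 8 genes lie between -0.74 (LSS) and 0.37 (FDFT1).

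Genes that sense sterols did not pass either. Of 14 reported sensing genes 0 were called by limma, edgeR or DESeq2 and 0 had an unadjusted limma p under 0.05, with a median log2 fold change of -0.17. INSIG1, which retains SREBP2 in the endoplasmic reticulum and is itself a target of it, measured 786 ± 70.2 (SD, n = 4) and 679 ± 73.3 (SD, n = 5) normalized counts, which gave -0.21 on the log2 scale (SE 0.13, limma adjusted p = 0.72). SREBF1, the related factor that favours fatty acid genes, stood at -0.21 (SE 0.24), the sterol receptor gene NR1H3 at 0.31 (SE 0.16), ERLIN2 at -0.21 (SE 0.15) and RNF139 at -0.21 (SE 0.19), with limma adjusted p-values between 0.65 and 0.83. SREBF1 ran from -0.38 without control 1 to -0.064 without knockout 3, and RNF139 from -0.32 without knockout 3 to -0.11 without knockout 4.

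Transport, fatty acid and isoprenoid genes complete the comparison. Of 11 tested genes of cholesterol transport and storage 0 passed (2 lower at an unadjusted limma p under 0.05, and 0 with edgeR or DESeq2), with a median log2 fold change of -0.26. LIPA, the lysosomal lipase that frees cholesterol from its esters, stood at -0.67 (SE 0.21, limma adjusted p = 0.34). STARD3, a carrier of cholesterol between membranes, stood at -0.31 (SE 0.12, limma adjusted p = 0.52). Its control libraries (452 to 563 normalized counts) all lay above its knockout libraries (367 to 445). The clones were apart in this way, in either direction, for 3.95% of all rows and 4.63% of coding rows. NPC1 and NPC2, which move cholesterol out of lysosomes, stood at -0.30 and -0.41. Of 13 fatty acid genes, INSIG1 again among them, 0 passed (1 lower at an unadjusted limma p under 0.05), with a median of -0.08. ELOVL1, a fatty acid elongase, stood at -0.67 (SE 0.20, limma adjusted p = 0.28), and its control libraries (194 to 335 normalized counts) also lay above its knockout libraries (117 to 178). SCD, the stearoyl-CoA desaturase, stood at -0.27, FASN, the fatty acid synthase, at 0.27 and PNPLA3 at 0.34. Of 12 genes on the branches to other isoprenoids 0 passed or had an unadjusted limma p under 0.05 (median -0.05), the values named by rule being RABGGTB (-0.36), NUS1 (-0.31), COQ2 (-0.31) and ICMT (-0.40). Without control 3 NUS1 stood at -0.20, COQ2 at -0.17 and ICMT at -0.15, and without control 1 ICMT stood at -0.67, NPC2 at -0.25 and PNPLA3 at 0.20. Without knockout 3 NUS1 stood at -0.39 and COQ2 at -0.40, and without control 4 NPC2 stood at -0.57 and PNPLA3 at 0.43.

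The genes whose profile over the 9 libraries lay closest to the median profile of the 8 genes were ZNF737, PAK1, SCD, RAD54B, PPP1R12A, ALDH18A1, ZZZ3 and PLEKHA6, out of 16219 rows whose mean reached 50 normalized counts. Likeness was the root mean square distance between log2 values centred on each gene's mean, which was 0.084 for ZNF737, 0.095 for SCD and 0.37 for the median row. Among the 8 genes themselves DHCR7 (0.080) and HMGCS1 (0.10) lay closest to their median profile. The others ran from 0.11 (SQLE) to 0.27 (LSS), farther than PLEKHA6 (0.105), the last of the genes listed.

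The direction of some of the small differences changed with the scaling of the libraries. With 1 library left out it changed for MVD, FDFT1 and SREBF2. With the deposited scaling 7 of 8 genes were negative, with scaling on coding rows 5 of 8 and with quantile normalization 3 of 8, and the median log2 fold change of the 8 moved from -0.16 to -0.05 and 0.08. Scaling on coding rows also shifted the median of all rows, from 0.01 to 0.11. IDI1, LSS and DHCR7 were negative under all 18 alternatives tried, and 0 of the 8 genes passed under any of them.

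**Figure D4:**
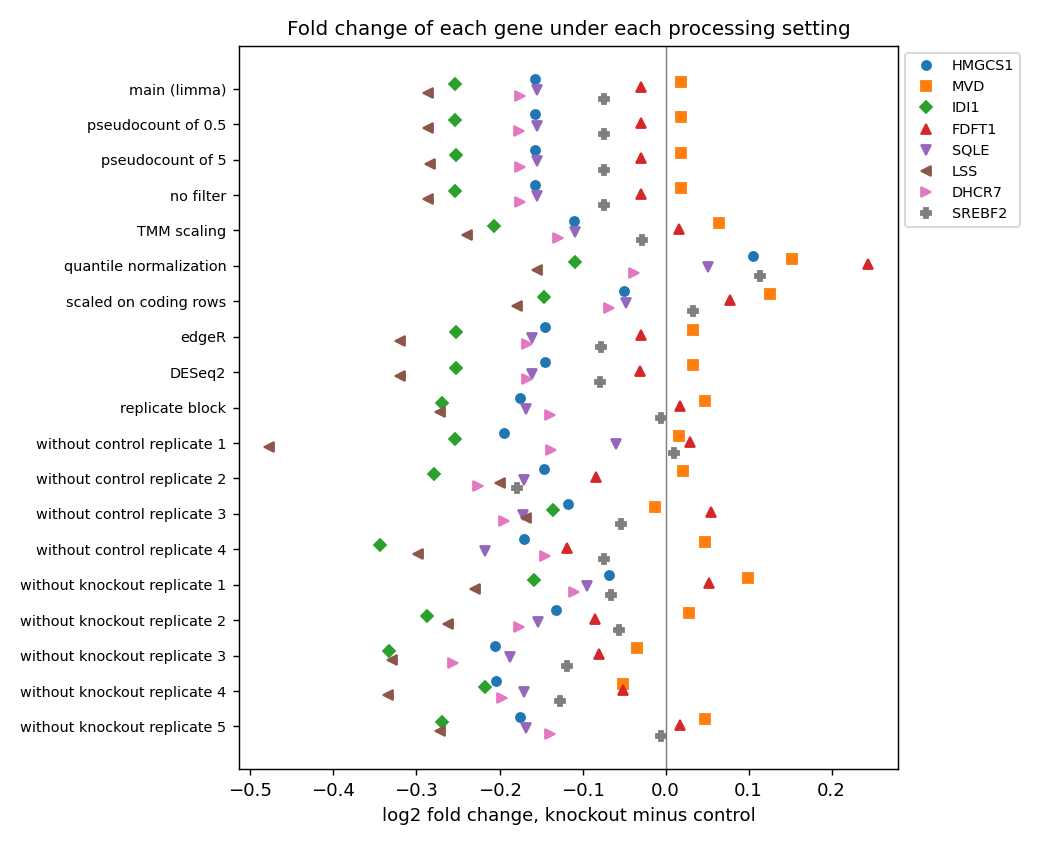
Log2 fold change, knockout minus control, of each of the 8 genes (horizontal axis, 1 marker per gene) under the main analysis and 18 alternatives (vertical axis). IDI1, LSS and DHCR7 stay below 0 throughout, and under quantile normalization the other 5 genes lie above 0.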

How the data were processed

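The deposited table holds 1 signal column per library: gene counts that the authors divided by a size factor (normalized counts). The tools named are fastp, kallisto and DESeq2, with the build hg38 and no versions, per the submitters' processing notes. Dividing each library by its lowest non-zero value gave whole numbers for 100% of values (tolerance 1e-06), taken here as recovered reads, 19838682 to 31192630 per library. Rows of microRNA genes start at 9 to 33 such units where coding rows start at 1, so units of short rows are not single reads. The authors' deposited columns of mean signal, log2 fold change, test score and p-value (raw and adjusted) stand in the same table. The authors' fold changes were matched to 4.7e-07 by running DESeq2 on the recovered reads of all rows with reads, whereas the DESeq2 alternative below used the rows kept by the filter.

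The main test, planned for normalized values, fitted log2(value + 1) in all 9 libraries by group alone, with limma 3.58.1 under R 4.3.3 and a trended variance. Fold changes are on this scale. Rows were kept by filterByExpr with a minimum count of 10, and adjustment was by Benjamini-Hochberg over 27777 rows. With the quasi-likelihood test of edgeR 4.0.16, run on recovered reads, 145 rows were called, and DESeq2 1.42.0 was another alternative. The members and lists were chosen with earlier results of these data known. Genes named beyond the 8 were set by rule: fixed names, up to 4 of each list with the smallest p, and the 8 nearest profiles. Some planned genes are not reported here and are left out of the list counts. The sensing list held IDOL beside its synonym MYLIP and the lineage list held T beside TBXT; each gene was counted once. Transcript lengths and exons came from GENCODE 29 (GRCh38).

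A batch tag in the labels holds the replicate number, so equal numbers were taken as pairs. For pairs 1 to 4 the correlation of their deviations from the group means was 0.067, 0.023, 0.25 and 0.33. Libraries of unequal number reached 0.21 (control 4 with knockout 5) and 0.13 (control 3 with knockout 2). Knockout 5 has no partner. The limma fit was tested on simulated counts.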

Additional observations from a re-analysis of the deposited data

Results flagged for a closer look

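Among 82 groups of libraries (41 named genes in 2 clones), 2 held a library far from the rest of its group by Dixon's criterion, which chance meets in about 1 in 20 groups. MSMO1, a sterol demethylase, measured 3597 normalized counts in control 1, against 2098 to 2308 in the other control libraries, and its log2 fold change was 0.020 without that library. MIXL1, a mesendoderm marker with few counts, measured 24.9 normalized counts in control 2, against 14.5 to 15.9 in the other control libraries. None of the 8 cholesterol synthesis genes was among them.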

How the results depend on the processing

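Under 18 alternatives 0 of the 8 genes and 0 of 61 other tested pathway genes reported here passed, the smallest adjusted p of any of the 8 being 0.327 (limma, LSS without control 1). The count over all rows was 150 in the main analysis, 43 with the replicate block, 567 with DESeq2 and 79 to 186 with 1 library left out. It moved by over 1.5 times when control 1 (93), control 2 (80), control 3 (94), knockout 2 (95), knockout 4 (79) or knockout 5 (80) was left out. Equal replicate numbers were taken as pairs, and the replicate block changed no call among the 8 genes. The median log2 fold change of the 8 was 0.078 under quantile normalization and -0.20 to -0.081 with 1 library left out.

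Log2 fold changes turned sign under quantile normalization for HMGCS1 (0.11), FDFT1 (0.24), SQLE (0.051), SREBF2 (0.11), MSMO1 (0.070), SCD (0.056), THY1 (0.0011) and DCN (-0.064). They turned with scaling on coding rows for FDFT1 (0.078) and SREBF2 (0.033), and for FDFT1 with TMM (0.017) and with the block (0.017). With 1 library left out the values ran from -0.051 to 0.10 for MVD, -0.12 to 0.055 for FDFT1, -0.18 to 0.0099 for SREBF2, -0.24 to 0.020 for MSMO1 and -0.086 to 0.37 for DCN. The cause was not tested. The 8 genes had 491 to 5593 recovered reads in a library.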
